A study of Mus musculus with 14 samples.

Results

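Tmem119, P2ry12, P2ry13, Cx3cr1, Sall1, Csf1r, Siglech, Gpr34 and Olfml3 are genes that resting microglia, the resident macrophages of the brain, carry at high levels. These 9 genes were taken by symbol from a table of 46904 genes measured by RNA sequencing. The table covers 14 mouse brain hemispheres. All came from male C57BL/6J mice of 12 weeks after a transient occlusion of the middle cerebral artery (MCAO) of 20 min, taken at 48 h. The ipsilesional hemisphere is called MCAO and the contralateral hemisphere of operated mice is called CL, so no hemisphere of an unoperated mouse serves as the reference. Mice either carried both copies of Cort, the gene of the neuropeptide cortistatin (Cort+/+), or lacked it in all cells from conception (Cort-/-). There were 3 Cort+/+ CL, 3 Cort+/+ MCAO, 3 Cort-/- CL and 5 Cort-/- MCAO libraries.

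Microglia depend on signalling through the receptor CSF1R, which binds the ligands CSF1 and IL-34. They sense neurons through CX3CR1, the receptor of the neuronal chemokine CX3CL1, and they sense nucleotides through the receptors P2RY12 and P2RY13. The transcription factor SALL1 keeps the microglial program apart from that of other macrophages, and TGF-beta signalling maintains much of the set. After injury, microglia may increase in number and may also lower these genes in each cell, so that the direction of a homeostatic gene in whole tissue combines both. The question here was therefore whether the 9 genes moved with or against genes that microglia carry in any state. In bulk tissue, fewer cells of a type and less RNA per cell cannot be told apart.

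P2ry12 and P2ry13 are neighbouring genes, and Olfml3 had the largest change of the set, so the 250 bases before the start of each are shown (RefSeq, GRCm38.p6, minus strand, chr3:59262986-59263235, chr3:59210883-59211132 and chr3:103738002-103738251). Capitals mark the letters GAGGAA or, read on the other strand, TTCCTC, which form a common core of PU.1 binding sites, and no other motif was searched.
P2ry12: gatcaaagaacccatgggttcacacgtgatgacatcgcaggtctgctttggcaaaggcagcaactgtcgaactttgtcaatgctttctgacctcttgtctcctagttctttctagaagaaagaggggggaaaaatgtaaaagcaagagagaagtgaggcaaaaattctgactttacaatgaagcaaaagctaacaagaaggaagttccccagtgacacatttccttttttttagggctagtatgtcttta
P2ry13: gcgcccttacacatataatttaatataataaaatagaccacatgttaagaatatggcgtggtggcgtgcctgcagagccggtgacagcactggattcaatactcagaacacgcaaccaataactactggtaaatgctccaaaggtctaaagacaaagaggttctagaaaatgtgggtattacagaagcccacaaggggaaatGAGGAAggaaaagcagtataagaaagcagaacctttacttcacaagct
Olfml3: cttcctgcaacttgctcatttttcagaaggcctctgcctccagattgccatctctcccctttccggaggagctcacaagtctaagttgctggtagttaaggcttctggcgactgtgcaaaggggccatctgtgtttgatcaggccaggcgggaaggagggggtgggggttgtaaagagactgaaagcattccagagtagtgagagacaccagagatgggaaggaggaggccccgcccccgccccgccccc
Promoters of 6 members were matched by symbol, and the letters were present in 1 of them, that of P2ry13. Of all 32851 promoters of this length, 23.3% hold the letters. A match is a description of the sequence and not a binding site.

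Values were deposited as read numbers scaled by gene length and library size (RPKM), which allows levels of different genes to be compared per length. Libraries held 25993990 to 43039769 reads on genes. Cort itself had 64 to 139 reads in the Cort+/+ libraries and 0 to 4 reads in the Cort-/- libraries, as their labels imply. All 9 members passed the filter on low values, with 123 (Gpr34) to 7673 (Csf1r) reads per library. The labels do not say which libraries share a mouse, and p-values therefore measure the spread between these samples.

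Over both genotypes, 7 of the 9 genes were higher in the MCAO hemisphere and none was lower. Olfml3 rose most, Gpr34, Tmem119, Cx3cr1 and Csf1r rose by a middling amount, and P2ry13 and Sall1 rose less. The log2 fold changes of P2ry12 and Siglech were also above 0, at 0.34 and 0.32, and did not pass the test. A gene was called where its adjusted p was under 0.05 in limma on log2(RPKM + 0.1), with adjustment over all 46102 genes tested. In this contrast 2.52% of all genes were called higher, and 5.56% of the 15063 genes that average 1 RPKM or more, a level that all members exceeded. The members' median log2 fold change was 0.65, against 0.00 over all genes tested. With 1 library left out, 4 to 7 members were called higher. Gpr34 and Sall1 were each called in 17 of 23 alternative analyses and P2ry13 in 8.

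**Figure D1:**
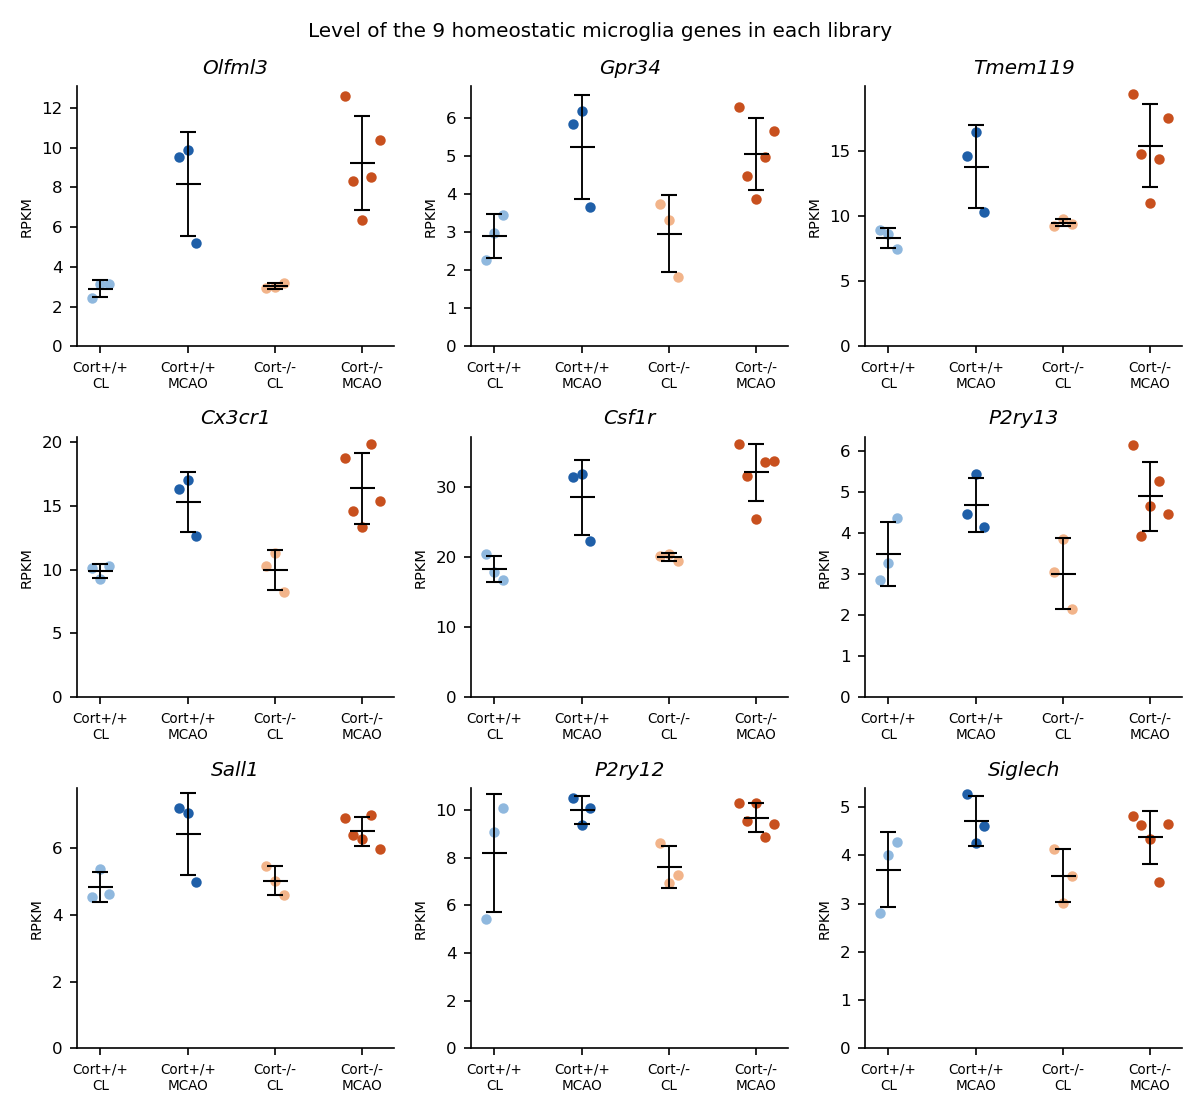
RPKM (vertical axes, from 0) of the 9 genes in each of the 14 libraries, ordered by the size of the change; points are libraries, horizontal bars are group means and whiskers the SD, with 3 libraries a group and 5 in Cort-/- MCAO. Olfml3 separates the hemispheres most widely, with CL libraries between 2.41 and 3.2 RPKM and MCAO libraries between 5.18 and 12.6, whereas the groups of Siglech overlap.

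Olfml3 encodes a secreted glycoprotein of the olfactomedin family. In Cort+/+ mice its level was 2.41, 3.14 and 3.16 RPKM in the CL and 9.54, 9.87 and 5.18 RPKM in the MCAO libraries. In Cort-/- mice it was 2.93, 2.98 and 3.2 RPKM in the CL and 12.6, 8.35, 6.34, 8.51 and 10.4 RPKM in the MCAO libraries. Every MCAO library lay above every CL library, and the lowest of them was replicate 4 of Cort+/+ MCAO. The log2 fold change was 1.48 ± 0.17 (SE) over both genotypes (adjusted p = 0.00116), 1.42 ± 0.25 in Cort+/+ mice (adjusted p = 0.101) and 1.54 ± 0.22 in Cort-/- mice (adjusted p = 0.00904).

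Tmem119 encodes a transmembrane protein widely used to tell microglia from infiltrating macrophages. In Cort+/+ mice it measured 8.97, 8.6 and 7.48 RPKM in CL and 14.6, 16.5 and 10.3 RPKM in MCAO. Its Cort-/- values were 9.28, 9.79 and 9.42 RPKM in CL and 19.4, 14.8, 11, 14.4 and 17.5 RPKM in MCAO. The hemispheres did not overlap in either genotype, although replicate 4 of Cort+/+ MCAO and replicate 3 of Cort-/- MCAO came close to the CL level. Tmem119 changed by a log2 fold change of 0.68 ± 0.13 (SE) over both genotypes (adjusted p = 0.0103), a fold of 1.6.

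Csf1r encodes the receptor on which microglial survival depends, and was the most abundant member per length. Its Cort+/+ libraries held 20.4, 17.8 and 16.7 RPKM in CL and 31.4, 31.8 and 22.3 RPKM in MCAO. Its Cort-/- libraries held 20.2, 20.4 and 19.4 RPKM in CL and 36.1, 31.6, 25.4, 33.5 and 33.6 RPKM in MCAO. The CL libraries thus stayed within a narrow band, and all MCAO libraries were above it. Csf1r had a log2 fold change of 0.65 ± 0.09 (SE) over both genotypes (adjusted p = 0.00341), 0.62 ± 0.14 in Cort+/+ (adjusted p = 0.204) and 0.67 ± 0.13 in Cort-/- mice (adjusted p = 0.0222).

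Cx3cr1, the fractalkine receptor, measured 10.1, 9.29 and 10.3 RPKM in Cort+/+ CL and 16.3, 17 and 12.6 RPKM in Cort+/+ MCAO. Cort-/- libraries held 10.3, 11.3 and 8.28 RPKM in CL and 18.7, 14.6, 13.3, 19.8 and 15.4 RPKM in MCAO. The hemispheres did not overlap in either genotype. Cx3cr1 had a log2 fold change of 0.66 ± 0.11 (SE) over both genotypes (adjusted p = 0.00536) and 0.70 ± 0.14 in Cort-/- mice (adjusted p = 0.0281). In Cort+/+ mice it was 0.61 ± 0.16 (adjusted p = 0.266). Both Csf1r and Cx3cr1 are also carried by monocytes and other macrophages.

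Gpr34, a receptor of lysophosphatidylserine, measured 2.28, 2.97 and 3.44 RPKM in Cort+/+ CL and 5.85, 6.18 and 3.66 RPKM in Cort+/+ MCAO. Among Cort-/- libraries it measured 3.75, 3.32 and 1.82 RPKM in CL and 6.3, 4.47, 3.87, 4.97 and 5.65 RPKM in MCAO. The groups touched without overlapping, with the lowest MCAO library just above the highest CL library in both genotypes. The log2 fold change over both genotypes was 0.80 ± 0.18 (SE, adjusted p = 0.0283), a larger estimate than that of Csf1r with a standard error that was also larger.

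P2ry12 and P2ry13 encode receptors of ADP, and P2RY12 guides microglial processes toward injured cells. P2ry12 measured 5.42, 9.08 and 10.1 RPKM in Cort+/+ CL and 10.5, 9.35 and 10.1 RPKM in Cort+/+ MCAO. Its Cort-/- values were 8.6, 6.93 and 7.27 RPKM in CL and 10.3, 9.52, 10.3, 8.86 and 9.43 RPKM in MCAO. The MCAO libraries of both genotypes stayed within 8.86 to 10.5 RPKM, a range that 2 of the 3 Cort+/+ CL libraries shared. Its log2 fold change over both genotypes was 0.34 ± 0.12 (SE, adjusted p = 0.162). Without replicate 1 of Cort+/+ CL, the lowest library, the log2 fold change within Cort+/+ mice went from 0.33 to 0.05.

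P2ry13 measured 2.85, 3.27 and 4.36 RPKM in Cort+/+ CL and 4.47, 5.43 and 4.15 RPKM in Cort+/+ MCAO. Cort-/- libraries held 3.05, 3.85 and 2.14 RPKM in CL and 6.14, 3.94, 4.66, 5.27 and 4.46 RPKM in MCAO. The Cort+/+ groups overlapped and the Cort-/- groups did not. The log2 fold change over both genotypes was 0.56 ± 0.14 (SE), with an adjusted p of 0.0493 that lies at the threshold, and the call was lost in 15 of 23 alternative analyses. The 2 receptors had log2 fold changes of 0.43 (P2ry13) and 0.33 (P2ry12) in Cort+/+ mice and of 0.70 and 0.35 in Cort-/- mice, and the difference between them was not tested.

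Sall1, the transcription factor, measured 4.55, 5.37 and 4.63 RPKM in Cort+/+ CL and 7.2, 7.05 and 5 RPKM in Cort+/+ MCAO. Its Cort-/- values were 5.46, 5.03 and 4.6 RPKM in CL and 6.91, 6.39, 6.27, 7.01 and 5.99 RPKM in MCAO. Replicate 4 of Cort+/+ MCAO fell inside the CL range, and the other 7 MCAO libraries were above it. Sall1 had a log2 fold change of 0.38 ± 0.08 (SE) over both genotypes (adjusted p = 0.0264), small but measured with the lowest standard error of the set. Sall1 is not confined to microglia, being known in neural progenitors and other organs.

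Siglech, a sialic acid-binding receptor of microglia that plasmacytoid dendritic cells also carry, measured 2.81, 4.01 and 4.27 RPKM in Cort+/+ CL and 5.27, 4.26 and 4.6 RPKM in Cort+/+ MCAO. In Cort-/- mice it measured 4.12, 3.02 and 3.58 RPKM in CL and 4.81, 4.62, 4.34, 3.44 and 4.64 RPKM in MCAO. The hemispheres overlapped in both genotypes. The log2 fold change over both genotypes was 0.32 ± 0.11 (SE, adjusted p = 0.162), the lowest of the set.

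Within a single genotype the test called fewer members. No member was called in Cort+/+ mice, where 0.00868% of genes were called higher, although all 9 log2 fold changes were above 0 and 7 members had an unadjusted p under 0.05 in limma, as 4.88% of genes had with a higher level. With limma voom on recovered reads 1 member, Olfml3, was called there (0.0846% of genes were called higher), and without replicate 4 of Cort+/+ MCAO 3 were (Olfml3, Csf1r and Sall1, against 0.337% of genes). In Cort-/- mice 3 members (Olfml3, Csf1r and Cx3cr1) were called higher, against 1.34% of all genes. This count fell to 1, Olfml3, without any of replicates 1 or 3 of Cort-/- CL or replicates 1, 4 or 5 of Cort-/- MCAO, where 0.180% to 0.586% of genes were called higher. It was 5 without replicate 4 of Cort+/+ MCAO, against 1.55% of genes. As a plainer count, every MCAO library was above every CL library for 5 members in Cort+/+ mice, against 8.19% of genes that average 1 RPKM or more, and for 8 members in Cort-/- mice, against 8.85%. The 5 were Olfml3, Tmem119, Csf1r, Cx3cr1 and Gpr34, and in Cort-/- mice Siglech was the exception.

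Loss of cortistatin did not move any member past the test. Between Cort-/- and Cort+/+ CL hemispheres the log2 fold changes ran from -0.22 (P2ry13) to 0.19 (Tmem119), with no call among the members and 0.0152% of all genes called. Between Cort-/- and Cort+/+ MCAO hemispheres they ran from -0.11 (Siglech) to 0.19 (Olfml3), again with no call and 0.0174% of all genes called. The interaction, which asks whether MCAO changed a gene by different amounts in Cort-/- and Cort+/+ mice, ran from -0.08 (Siglech) to 0.28 (P2ry13) and called no member, against 0.00217% of all genes. No member had an unadjusted p under 0.05 in limma in these 3 contrasts, and limma voom called none. Their standard errors were 0.12 to 0.27 in CL, 0.11 to 0.24 in MCAO and 0.17 to 0.36 for the interaction, and a p that misses the threshold does not show that the levels were equal.

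**Figure D2:**
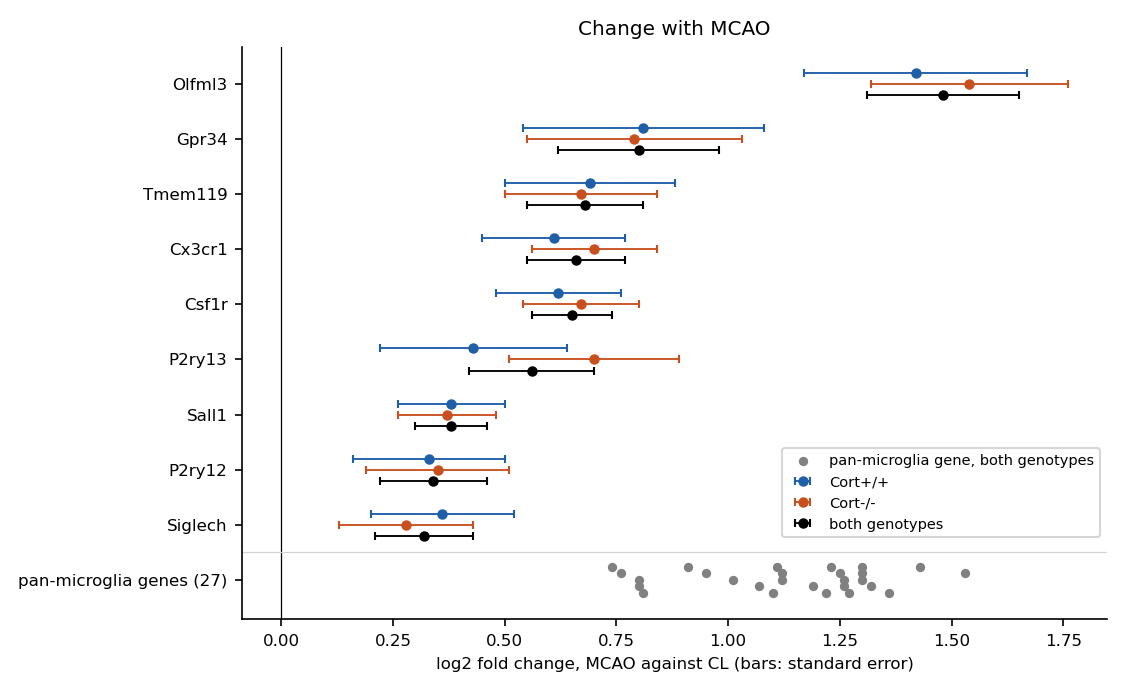
Log2 fold change of MCAO against CL (horizontal axis) for each member in Cort+/+ mice (blue), Cort-/- mice (orange) and both (black), with bars of 1 SE; grey points are the 27 pan-microglia genes over both genotypes, spread vertically for legibility. The genotypes lie side by side for each gene, and 7 of the 9 members lie below the lowest grey point at 0.74.

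The comparison with the general microglial signal used 27 pan-microglia genes, which microglia carry whether resting or activated and which other macrophages and leukocytes share. All 27 were called higher over both genotypes, as 2.52% of all genes were. Their median log2 fold change was 1.19. The range ran from 0.74 (Ctss, a lysosomal protease) to 1.53 (Ly86, a partner of a Toll-like receptor homologue). The list was chosen with earlier results of these data known, so this count and the comparisons with it are descriptions and not independent tests. Aif1, which encodes the microglial marker Iba1, went from 3.49 ± 0.176 to 7.62 ± 1.69 RPKM in Cort+/+ mice (SD, n = 3 each) and from 3.87 ± 0.118 (n = 3) to 9.12 ± 2.88 RPKM (n = 5) in Cort-/- mice. The members moved in the same direction as these genes and less far. Of the 9, 7 had a log2 fold change below that of every pan-microglia gene. Gpr34, at 0.80, lay at the lower end of the pan-microglia range, and Olfml3, at 1.48, lay near its upper end.

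Library by library, the mean of the members over the CL mean was 0.76, 0.77 and 0.34 on the log2 scale in the Cort+/+ MCAO libraries, where the pan-microglia mean was 1.07, 1.45 and 0.46. In the Cort-/- MCAO libraries the members' mean was 0.93, 0.60, 0.47, 0.68 and 0.73 and the pan-microglia mean 1.70, 1.06, 0.77, 1.52 and 1.31. In all 8 MCAO libraries the members' mean was the lower one. Among them, replicate 4 of Cort+/+ MCAO was lowest in both means and replicate 1 of Cort-/- MCAO was highest in both.

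**Figure D3:**
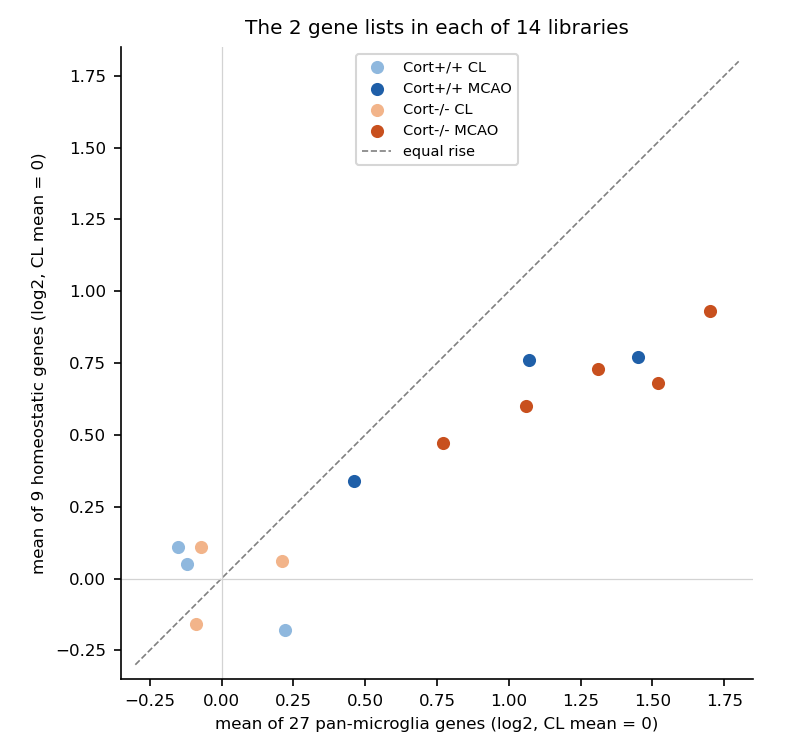
Mean log2(RPKM + 0.1) of the 27 pan-microglia genes (horizontal axis) and of the 9 members (vertical axis) in each of 14 libraries, both set to 0 at the mean of the CL groups; the dashed line marks an equal rise. All 8 MCAO libraries lie to the right of the line, with pan-microglia means of 0.46 to 1.70 and member means of 0.34 to 0.93.

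When each library's pan-microglia mean was subtracted from log2(RPKM + 0.1), 7 members were lower in MCAO over both genotypes. The relative log2 fold change was -0.81 ± 0.23 (SE) for Siglech, -0.79 ± 0.23 for P2ry12, -0.76 ± 0.18 for Sall1, -0.57 ± 0.20 for P2ry13, -0.48 ± 0.17 for Csf1r, -0.47 ± 0.17 for Cx3cr1 and -0.45 ± 0.16 for Tmem119. The adjusted p of these 7 ran from 4.79e-04 (Sall1) to 0.0118 (Tmem119). Gpr34 (-0.33, adjusted p = 0.114) and Olfml3 (0.35, adjusted p = 0.0673) were not called. The subtraction lowers every gene that does not rise with microglia, and 96.0% of all genes were called lower in this fit, so the count of members lies below the background. The members' median on this scale was -0.48, against -1.13 over all genes tested.

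The relative level of P2ry12 was 0.28, 1.36 and 1.55 in Cort+/+ CL and 0.37, -0.17 and 0.93 in Cort+/+ MCAO. In Cort-/- mice it was 1.23, 0.64 and 1.00 in CL and -0.28, 0.24, 0.65, -0.32 and -0.02 in MCAO. Replicate 1 of Cort+/+ CL sat among the MCAO libraries, and the groups overlapped in both genotypes. For Tmem119, Sall1 and Csf1r all MCAO libraries were below all CL libraries on this scale in both genotypes, as they were for 83.2% of the genes that average 1 RPKM or more. Within Cort+/+ mice 1 member, Sall1, was called lower (80.2% of all genes were), and within Cort-/- mice 6 were (93.4% of all genes). Between genotypes in MCAO the 9 relative differences ran from -0.39 (Siglech) to -0.09 (Olfml3), all below 0 with a median of -0.22, and the median over all genes tested was -0.28. None of the 9 was called, none had an unadjusted p under 0.05 in limma, and 0.0108% of all genes were called.

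**Figure D4:**
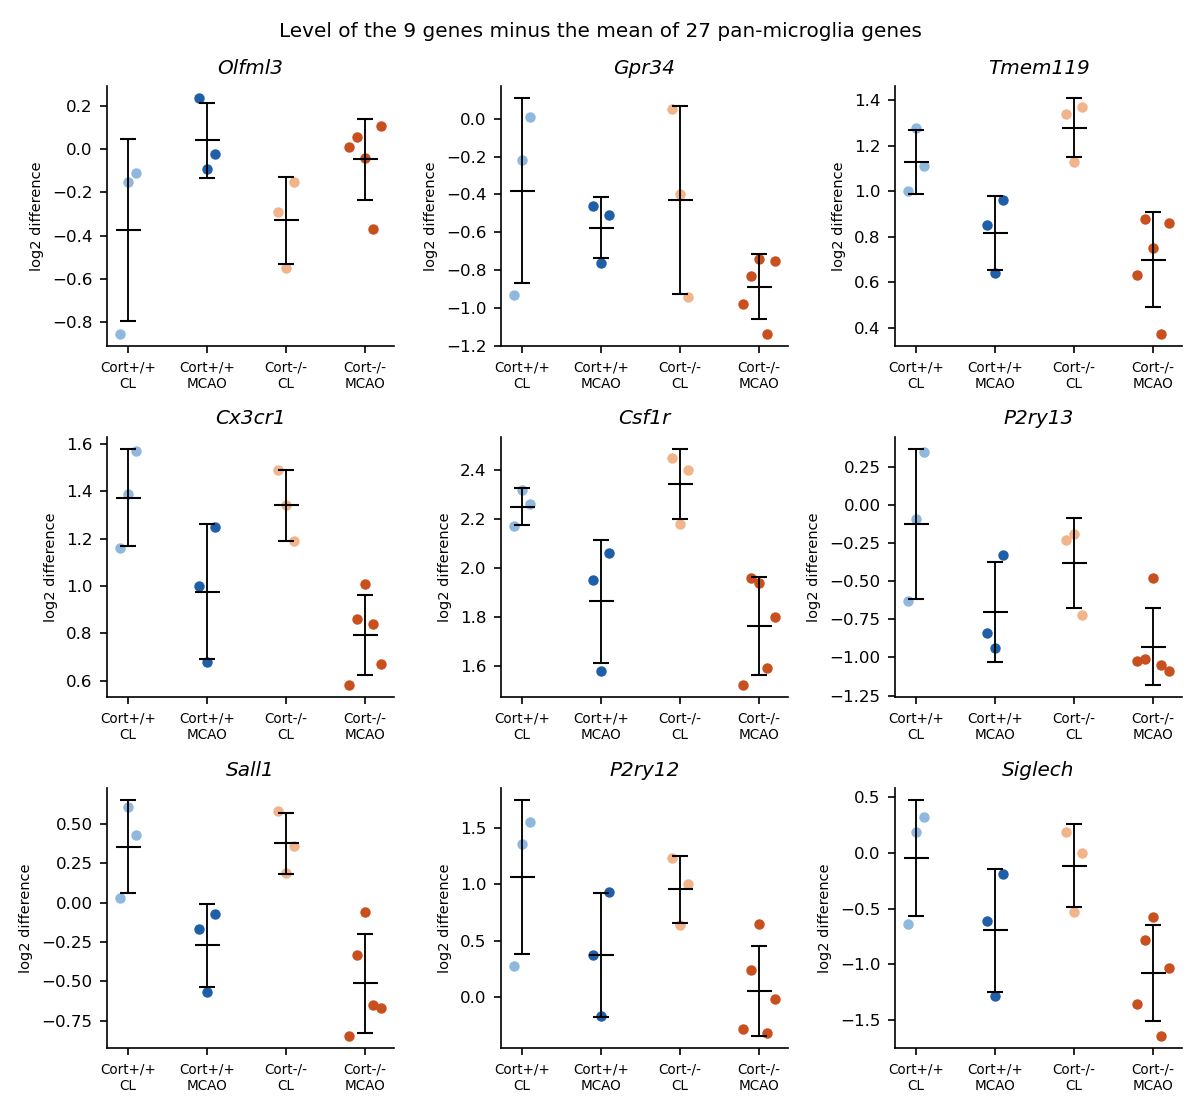
Log2(RPKM + 0.1) of each member minus the mean of the 27 pan-microglia genes in the same library (vertical axes, each with its own range); points are libraries, horizontal bars are group means and whiskers the SD, with 3 libraries a group and 5 in Cort-/- MCAO. Tmem119, Sall1 and Csf1r have all MCAO libraries below all CL libraries in both genotypes, as 83.2% of genes averaging 1 RPKM or more do, and Olfml3 has the Cort+/+ MCAO libraries, at -0.09 to 0.24, above the CL libraries, at -0.86 to -0.11, as 0.498% of those genes do, while its Cort-/- libraries overlap, at -0.37 to 0.11 in MCAO and -0.55 to -0.15 in CL.

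These relative changes depended on the reference. Measured against 26 further homeostatic genes in place of the pan-microglia genes, the relative log2 fold change turned positive for Gpr34 (0.36), Tmem119 (0.24), Cx3cr1 (0.22), Csf1r (0.20) and P2ry13 (0.12), and for Olfml3 it was 1.03. Olfml3, Gpr34, Tmem119, Cx3cr1 and Csf1r were then called higher, with adjusted p from 2.61e-04 (Olfml3) to 0.04 (Gpr34), where 1.29% of all genes were, and P2ry13 was not (adjusted p = 0.409). It stayed below 0 for Siglech (-0.12), P2ry12 (-0.11) and Sall1 (-0.07), and none of these 3 was then called. Of the 26 further genes 14 were called higher over both genotypes and none lower, with a median log2 fold change of 0.37. P2ry6, a receptor of UDP that promotes phagocytosis, rose by 1.15 ± 0.20 (SE, adjusted p = 0.00841). Gal3st4, a sulfotransferase, rose by 0.89 ± 0.14 (adjusted p = 0.00437). Several of these genes are also carried by other brain cells.

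Of 24 disease-associated microglia genes, which activated microglia take up, 21 were called higher over both genotypes and none lower, with a median log2 fold change of 1.41. They were not uniform: 7 of them had a log2 fold change below the members' median of 0.65, from -0.07 for the lipid carrier gene Apoe (adjusted p = 0.689) to 0.50 for Csf1 (adjusted p = 0.137). Relative to the pan-microglia genes, 12 of the 24 were called higher, as 0.306% of all genes were, and 7 lower, as 96.0% were. Lgals3, which encodes galectin-3, rose by 3.39 ± 0.37 (SE, adjusted p = 8.80e-04), the inhibitory receptor gene Lilrb4a by 3.28 ± 0.52 (adjusted p = 0.00481), and Cst7, an inhibitor of cathepsins, by 3.06 ± 0.44 (adjusted p = 0.00331). Of 15 proliferation genes, 14 were called higher, with a median of 1.30. Mki67 went from 0.164 ± 0.0284 to 1.55 ± 0.633 RPKM in Cort+/+ mice (SD, n = 3 each) and from 0.275 ± 0.105 (n = 3) to 2.15 ± 0.623 RPKM (n = 5) in Cort-/- mice. The cells that carry the proliferation genes were not identified by these bulk data.

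The ligand genes of CSF1R and CX3CR1 were not called over both genotypes. Csf1 had a log2 fold change of 0.50 ± 0.16 (SE, adjusted p = 0.137) over both genotypes, and Il34, the other ligand of CSF1R, of -0.02 ± 0.08 (adjusted p = 0.957). Cx3cl1 stood at 180 ± 28.7 RPKM in Cort+/+ CL and 161 ± 13.4 RPKM in Cort+/+ MCAO (SD, n = 3 each), with a log2 fold change of -0.20 ± 0.09 over both genotypes (adjusted p = 0.319). Tgfb1, whose receptors are not among the members, rose by 1.04 ± 0.16 (adjusted p = 0.00409). Of 29 genes for ligands and maintaining signals 9 were called higher and none lower, with a median log2 fold change of 0.31. Irf7, an interferon regulator, rose by 2.68 ± 0.52 (adjusted p = 0.0132). Spi1, which encodes PU.1, rose by 1.23 ± 0.21 (adjusted p = 0.0076) and Irf8 by 1.10 ± 0.17 (adjusted p = 0.00481), both being in the pan-microglia list too.

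Markers of other myeloid cells were measured as lists. The summed level of 10 monocyte markers was 7.5 to 11.8 RPKM in Cort+/+ CL, 10.8 to 24.3 RPKM in Cort+/+ MCAO, 9.39 to 10.8 RPKM in Cort-/- CL and 14.2 to 26.6 RPKM in Cort-/- MCAO, with 2 of the 10 called higher over both genotypes and none at 0 reads in a whole group. Most of that sum was Fn1, which encodes fibronectin and is also made by other cells, at 7.93 ± 1.4 RPKM in Cort+/+ CL and 11.4 ± 2.47 RPKM in Cort+/+ MCAO (SD, n = 3 each), and at 8.23 ± 0.205 RPKM (n = 3) and 14 ± 1.96 RPKM (n = 5) in the Cort-/- groups. Fn1 rose by 0.63 ± 0.11 on the log2 scale (SE, adjusted p = 0.00702) over both genotypes. Ccr2, the chemokine receptor that marks inflammatory monocytes, had 4 to 31 reads in the CL and 20 to 205 reads in the MCAO libraries. The 10 markers of border-associated macrophages summed to 4.14 to 8.55 RPKM in Cort+/+ CL, 5.9 to 12.4 in Cort+/+ MCAO, 6.02 to 7.81 in Cort-/- CL and 9.23 to 20.1 in Cort-/- MCAO, with 1 called higher. This was the scavenger receptor gene Stab1 (1.14 ± 0.21, adjusted p = 0.00949), which averaged 6.36 RPKM in Cort-/- MCAO, a level within the range of the members. The 9 neutrophil markers summed to at most 19.5 RPKM, with 1 called higher (Csf3r), and the defining marker Ly6g had at most 3 reads in any library. The median log2 fold change over both genotypes was 0.79 for monocyte and 0.46 for border-associated macrophage markers, all of them above 0. It was 0.13 for neutrophil markers, with 5 of 9 above 0, and 0.00 over all genes tested. The part of these cells in the members' change was not tested.

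Of 11 lymphocyte markers none was called higher and 1, Cd4, was lower (-1.38 ± 0.24, adjusted p = 0.00763). The 11 had a median log2 fold change of 0.10, with 8 above and 3 below 0. Many were near the floor: in Cort-/- CL 6 of the 11 had at most 3 reads in any library, whereas Cd4 had 355 to 403. The cells that carry Cd4 were not identified, and its change is not read as one of lymphocytes. Of 7 plasmacytoid dendritic cell markers, of interest for Siglech, 1 was called higher (Bst2, an interferon-induced gene) and the median log2 fold change was -0.01. Of 12 neuronal genes 4 were called lower, among them the striatal genes Drd2 (-0.85), Ppp1r1b (-0.71) and Drd1 (-0.69), where 0.902% of all genes were called lower. Of 8 astrocyte genes 3 were called higher, namely Gfap (1.84), the water channel gene Aqp4 (0.58) and Aldh1l1 (0.39), against 2.52% of all genes. The 8 astrocyte genes had a median log2 fold change of -0.02, with 4 above and 4 below 0. Of 8 vascular genes 2 were called higher, Cldn5 (0.43) and Cdh5 (0.40), both of endothelial junctions, and of 8 oligodendrocyte genes none was called by limma, with 3 at an unadjusted p under 0.05. The part of these cells in the members' change was not tested either.

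The order of the levels per length was led by Csf1r in all 4 groups, with 18.3 ± 1.89 RPKM in Cort+/+ CL and 32 ± 4.05 RPKM in Cort-/- MCAO (SD, n = 3 and n = 5), and no other member's libraries reached those of Csf1r. Cx3cr1 came next, then Tmem119 and P2ry12. In Cort+/+ CL the neighbours Tmem119 and P2ry12 overlapped, as did Siglech, P2ry13, Olfml3 and Gpr34, which averaged 2.9 to 3.69 RPKM. In the MCAO groups Olfml3 moved up to the fifth place, with 8.2 ± 2.62 RPKM in Cort+/+ and 9.23 ± 2.36 RPKM in Cort-/- mice, and overlapped P2ry12, whose means there were 9.98 and 9.69 RPKM. Siglech went from the sixth place in both CL groups to the eighth in Cort+/+ MCAO and the ninth in Cort-/- MCAO.

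Across the 14 libraries the members did not all vary alike. Among the 36 pairs Pearson's r of log2(RPKM + 0.1) ran from 0.41 (Tmem119 and P2ry12) to 0.98 (Tmem119 and Csf1r), with a median of 0.80. These values include the difference between hemispheres. With group means removed, r ran from -0.38 (P2ry12 and Csf1r) to 0.93 (Tmem119 and Csf1r). Against the pan-microglia mean with group means removed, r was 0.92 for Csf1r, 0.87 for Tmem119 and 0.84 for Cx3cr1, but -0.39 for P2ry12 and -0.35 for Siglech. Points share library depth and tissue sampling, and these values describe 14 libraries only.

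The genes whose pattern was most like the members' mean z-score over the 14 libraries, among 15054 others that average 1 RPKM or more, were Fcrl2, H2-T24, Plekho1, Fgfrl1, Jpt2, Tpt1, Mpeg1, Ccnd1, Anxa5 and Gm43720, with r from 0.95 to 0.96. Fcrl2, which may be a newer symbol of the homeostatic gene Fcrls, had a log2 fold change of 1.93 over both genotypes and Mpeg1, which encodes the macrophage protein perforin-2, of 1.65. Tpt1, a broadly expressed gene at a mean of 237 RPKM, had 0.35.

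The members lie on 7 chromosomes in GRCm39 (GENCODE M39). Tmem119 is at chr5:113931781-113938577, Cx3cr1 at chr9:119877749-119898945, Sall1 at chr8:89753863-89770823, P2ry12 at chr3:59123682-59170429, P2ry13 at chr3:59114539-59118304 and Olfml3 at chr3:103629538-103645322, all on the minus strand. Siglech is at chr7:55417926-55429195, Gpr34 at chrX:13489625-13507116 and Csf1r at chr18:61229714-61266535, on the plus strand. P2ry12 and P2ry13 lie within Med12l, Gpr34 lies within Cask and Csf1r overlaps Hmgxb3, each on the opposite strand. The strand setting of the counting is not given in the sources used here. The log2 fold changes of these host genes over both genotypes were -0.09 (Med12l, adjusted p = 0.574), -0.05 (Cask, adjusted p = 0.61) and -0.06 (Hmgxb3, adjusted p = 0.537). Noncoding genes also overlap Cx3cr1 (Gm33858), Sall1 (Gm3134) and Olfml3 (Gm65812), on the opposite strand. The microRNA gene Mir6983 overlaps Csf1r on the same strand, with a log2 fold change of 1.34 (adjusted p = 0.262) at a mean of 0.461 RPKM.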

How the data were processed

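RNA of whole hemispheres was sequenced as stranded mRNA libraries. The authors processed the reads with reanalyzerGSE against GRCm39 and GENCODE M28 and deposited RPKM values per library. The aligner and the strand setting are not given in the sources used here. Whole reads were recovered from the deposited RPKM values (495656 of 495656 values above 0, within 0.01 reads).

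Genes above 0 in at least 2 libraries (46102 of 46904) were fitted as log2(RPKM + 0.1) with limma 3.58.1 in R 4.3.3, as 1 model of the 4 groups with moderated, trended variances and Benjamini-Hochberg adjustment over all genes. The relative fit subtracted each library's mean of 27 pan-microglia genes. Fold changes on this scale understate the change of low genes. Promoters come from RefSeq (GRCm38.p6), positions from GENCODE M39. From each list, called genes that average 1 RPKM or more and change most, at most 3 in each direction, were named, with 4 ligand genes, the 10 genes most like the members, and a few genes (Aif1, Apoe, Ccr2, Ly6g, Ctss) chosen after their values were seen. A gene that this rule names is not reported here. Fcrls of the further homeostatic genes was not matched by symbol, and whether the table lists it as Fcrl2 was not settled. The members and lists were chosen with earlier results of these data known. Alternatives were another pseudocount, filters, scalings, library weights, a replicate block, limma voom, other references and 14 fits without 1 library each.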

Additional observations from a re-analysis of the deposited data

How the results depend on the processing

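All 9 members kept a log2 fold change above 0 for MCAO against CL in each genotype and over both under every alternative. Over both genotypes, Olfml3, Csf1r, Cx3cr1 and Tmem119 were called in all 23 alternatives, P2ry12 and Siglech in none, Gpr34 and Sall1 in 17 and P2ry13 in 8. The count of members called ranged from 4 to 7 with 1 library left out (1.65% to 3.14% of all genes called higher), 4 being the count without replicate 1 of Cort+/+ CL, replicates 2 or 3 of Cort+/+ MCAO or replicate 3 of Cort-/- CL. In Cort+/+ mice it was 1 with a filter at a mean of 0.5 RPKM (0.160% of genes) and with limma voom (0.0846%), and 0 to 3 with a library left out (0.00437% to 0.337%). In Cort-/- mice it was 5 with that filter (5.14%) and with limma voom (2.00%), 1 with only the groups compared (0.132%), and 1 to 5 with a library left out (0.180% to 2.10%). The genotype contrasts and the interaction called 0 members in every alternative.

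Relative to the pan-microglia genes, 4 members were called, all lower, with a pseudocount of 1 (99.1% of all genes called lower), all 9 with library weights (8 lower and Olfml3 higher, against 97.7% lower and 0.523% higher) and 7 to 8 with a library left out (93.9% to 96.6% lower), so nothing is read from the members called lower. With the further homeostatic genes as the reference, Tmem119 (0.24), P2ry13 (0.12), Cx3cr1 (0.22), Csf1r (0.20) and Gpr34 (0.36) changed sign, and 5 members were called higher (these without P2ry13, and Olfml3, against 1.29% of genes) and 0 lower (67.3%). The cause of these differences was not tested, apart from the fewer genes or libraries that the filter and the left-out libraries bring.

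The labels do not say whether the replicate numbers pair the samples. In deviations from group means over 15063 genes, same-numbered CL and MCAO libraries correlated at 0.32 and -0.14 in Cort+/+ mice. In Cort-/- mice such libraries correlated at -0.06, -0.24 and 0.03. With 3 CL libraries in each genotype, these values cannot show whether the numbers pair the samples. Differently numbered libraries correlated at -0.18 to 0.27 in Cort+/+ and at -0.32 to 0.40 in Cort-/- mice. Whether any of these share a mouse was not tested. With the replicate block the counts of members called were 0 in Cort+/+, 3 in Cort-/- mice and 7 over both genotypes, as without it. The shares of all genes called higher were 0.00868%, 1.32% and 2.49%. In the relative fit 7 members were called, where 95.2% of all genes were called lower, so nothing is read from that count.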
